A study of Mus musculus with 38 samples.

Results

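A set of 10 genes of red cell, heme and iron biology were followed across 38 kidney libraries. They were taken by symbol from the deposited table of raw counts, which held 55487 genes, and all 10 symbols were found. The set holds Alas2, the first enzyme of heme synthesis in red cell precursors, the adult α-globins Hba-a1 and Hba-a2, the adult β-globins Hbb-bs and Hbb-bt, the hormone erythropoietin (Epo), transferrin receptor 1 (Tfrc), heme oxygenase 1 (Hmox1), ferroportin (Slc40a1) and the divalent metal transporter DMT1 (Slc11a2). The rule names symbols and sets no threshold on any value, but the set was chosen by earlier results of these same counts. The adjusted p-values below therefore place each gene among all genes and are not independent support for the choice.

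The libraries came from 3 experiments with 10 groups, and FGF23 is a bone-derived hormone that lowers renal phosphate reabsorption. In the anti-GBM experiment, male C57BL/6JRj mice were immunized and given nephrotoxic serum, which carries antibodies against the glomerular basement membrane, or were left healthy. They then received recombinant human FGF23 (1 µg per injection, 6 daily injections) or vehicle, which gave 4 healthy vehicle, 4 anti-GBM vehicle, 3 healthy FGF23 and 3 anti-GBM FGF23 libraries by the labels and the study's column headers. A figure legend of the study gives other group sizes, and the header of the anti-GBM FGF23 library called NTS14 here repeats the name of the healthy vehicle library NTS4. In the Adriamycin experiment, female BALB/c mice were healthy or had nephropathy after Adriamycin, a podocyte toxin, and received 1 injection of FGF23 or vehicle 24 h before kidneys were taken, with 4 libraries in each of the 4 groups. Precision-cut kidney slices (PCKS) came from male DBA/2J mice with adenine nephropathy and were cultured with FGF23 at 200 ng per mL or with vehicle, 4 libraries each. The kidney mice were 10 weeks old at euthanasia and the slice donors 23 weeks. The labels give 1 h of treatment for the slices, the study's text gives 24 h, and the slice experiment had no healthy tissue. Injected mice were whole animals, so effects on the kidney itself and effects through the circulation cannot be told apart.

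Total counts per library were between 13704248 and 23630210 in the anti-GBM experiment, 15665050 and 27583911 in the Adriamycin experiment, and 11186925 and 16254987 in the slices. All 7 kidney identity genes, among them Umod of the thick ascending limb and Slc34a1 of the proximal tubule, were detected in each experiment, with a summed level of 8875 to 13768 CPM in the anti-GBM experiment, 10293 to 13602 CPM in the Adriamycin experiment and 2376 to 7666 CPM in the slices. CPM are counts for each 1000000 counts of a library, after scaling by the trimmed mean of M values. The share of mitochondrially encoded counts was 11.1% to 12.0% in healthy vehicle and 7.65% to 8.74% in anti-GBM vehicle libraries, and with FGF23 it was 9.68% to 10.7% in healthy and 6.82% to 7.85% in anti-GBM libraries. It was thus lower with disease and, in healthy mice without overlap, with FGF23, and its part in the differences of this experiment below was not tested. Globin levels are compared only within an experiment, since the strains can carry different globin haplotypes. Nothing in the labels says how libraries of a group relate beyond being separate samples, so p-values measure the spread between these libraries.

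As background, adult red cells carry hemoglobin made of α- and β-globin chains with heme, and their precursors make that heme through Alas2. Interstitial fibroblasts of the kidney secrete Epo when oxygen is low, and Epo keeps red cell precursors alive in the marrow and spleen. Tubule cells recover filtered iron and heme: Tfrc binds iron-loaded transferrin, Slc11a2 moves ferrous iron across membranes, Hmox1 breaks heme down and Slc40a1 exports iron from cells.

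Alas2, Tfrc, Slc40a1 and a form of Slc11a2 are textbook targets of iron regulatory proteins, which bind iron-responsive elements (IREs) in the mRNA. Matches to a strict form of the element are shown to let these sites be read. A pattern of 17 bases (C, 5 bases, CAGTGN, then 5 bases that pair with the first 5, G-T pairs allowed) was searched in GENCODE M21 transcripts of GRCm38. This search was chosen after the expression values were seen. It matched 565 of 58797 protein-coding transcripts (0.961%) and 3 of the 10 genes. Capitals mark the loop bases CAGTG.
Alas2, 5′ UTR, chrX:150547464-150547480, plus strand: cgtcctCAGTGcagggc
Slc40a1, 5′ UTR, chr1:45925471-45925487, minus strand: cagctaCAGTGttagct
Tfrc, 3′ UTR, chr16:32631225-32631241, plus strand: cggaagCAGTGccttcc
Tfrc, 3′ UTR, chr16:32631604-32631620, plus strand: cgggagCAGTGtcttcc
Tfrc, 3′ UTR, chr16:32631669-32631685, plus strand: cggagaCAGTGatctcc
Tfrc, 3′ UTR, chr16:32631716-32631732, plus strand: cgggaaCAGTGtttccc
Alas2 and Slc40a1 held 1 match each near the start of the transcript, and Tfrc held 4 in its 3′ UTR. Slc11a2 held no match, which says only that no sequence of this pattern was in the transcripts searched, so the matches are not a full list of elements.

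Promoters were found for 7 of the 10 genes and searched on either strand for 2 exact sequences. These were AGATAA, a form of the site bound by GATA factors, and CACACCC, a form of the element bound by KLF1. AGATAA was in 2 of the 7, Hbb-bs and Alas2, and CACACCC in 1, Hbb-bs, while Hba-a1, Hba-a2 and Hbb-bt held neither. Other forms of these sites were not searched, and Hba-a1, Hba-a2 and Epo, for example, held TGATAA. Of the other motifs searched, TGACNNNGC, a core bound by NRF2, was in 1 of the 7 (Hbb-bt, 12.4% of all promoters) and ACGTG, a core bound by HIF, in 1 (Tfrc, 19.6%). The 250 bases before the starts of Hbb-bs and Alas2 are shown, as the red cell genes with AGATAA or CACACCC (RefSeq, GRCm38.p6). Capitals mark AGATAA and CACACCC.
Hbb-bs, chr7:103827929-103828178, minus strand: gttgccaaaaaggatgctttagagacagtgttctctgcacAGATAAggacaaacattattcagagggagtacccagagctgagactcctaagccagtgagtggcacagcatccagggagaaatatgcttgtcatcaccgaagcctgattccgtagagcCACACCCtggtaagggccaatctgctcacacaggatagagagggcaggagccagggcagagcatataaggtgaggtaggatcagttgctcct
Alas2, chrX:150547167-150547416, plus strand: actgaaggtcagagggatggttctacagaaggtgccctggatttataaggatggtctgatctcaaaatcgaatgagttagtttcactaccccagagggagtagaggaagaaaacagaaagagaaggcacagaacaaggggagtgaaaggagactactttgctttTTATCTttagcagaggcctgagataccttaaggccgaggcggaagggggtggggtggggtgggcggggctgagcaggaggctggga
AGATAA began 210 bases before the Hbb-bs start and lay 86 bases before the Alas2 start on the opposite strand (TTATCT). It occurred in 11.2% of 32851 promoters of 300 bases (250 before and 50 after the start), and CACACCC, which began 92 bases before the Hbb-bs start, in 7.95%. The 5 red cell genes varied together across libraries, with or without a match to these exact sequences in their promoter. The matches are descriptions of sequence.

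In both injected experiments, all 5 red cell genes were at their highest mean in diseased vehicle mice and lower in diseased mice given FGF23. None passed an adjusted p of 0.05 in edgeR's quasi-likelihood test for FGF23, in either disease. The clearest separation was in the Adriamycin experiment. Hbb-bs, the most abundant of the 5, was at 91.6, 142, 143 and 88.9 CPM in healthy vehicle mice and at 217, 170.3, 302 and 244 CPM in Adriamycin vehicle mice. With FGF23 it was at 106, 79.0, 48.9 and 75.7 CPM in healthy mice and at 54.0, 111, 112 and 92.3 CPM in Adriamycin mice. Every Adriamycin vehicle library lay above every library of the other 3 groups.

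Alas2 followed the same order at a lower level. Healthy vehicle libraries had 9.80, 15.06, 15.08 and 9.81 CPM and Adriamycin vehicle libraries 21.5, 15.9, 28.1 and 25.6 CPM. Healthy FGF23 libraries had 10.004, 8.19, 4.04 and 8.66 CPM and Adriamycin FGF23 libraries 5.08, 11.73, 10.7 and 9.44 CPM. The Adriamycin vehicle libraries again lay above all others, the lowest of them by a small margin over healthy vehicle. In bulk tissue, fewer cells of a type and less RNA per cell cannot be told apart.

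**Figure D1:**
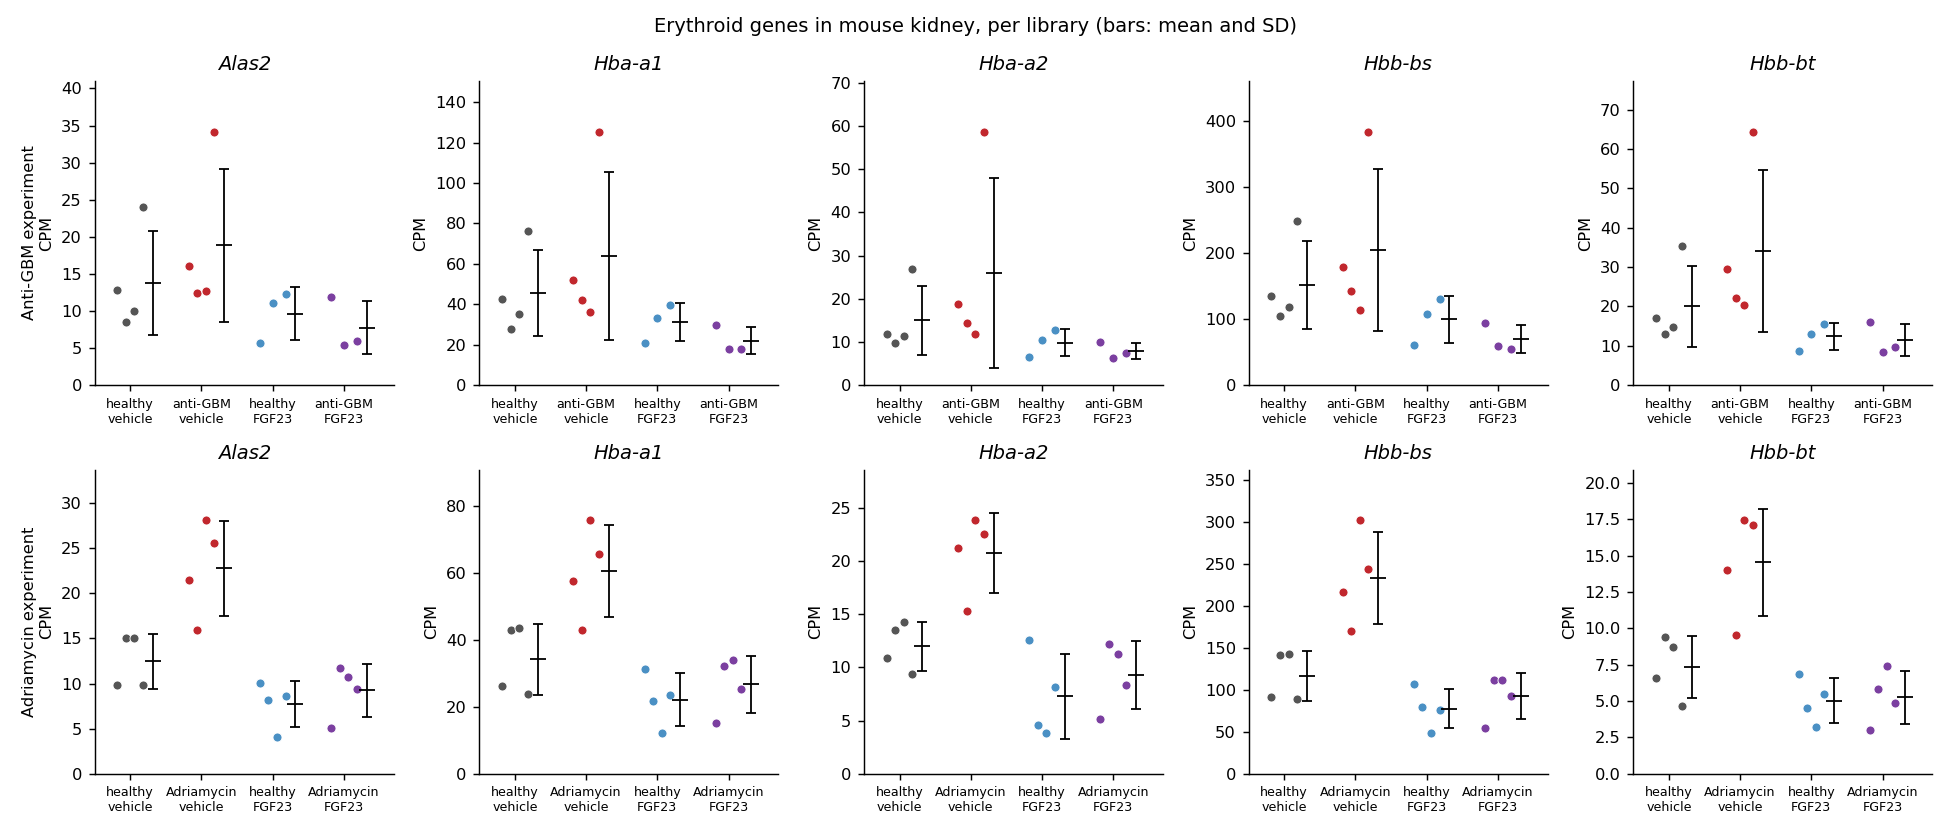
Levels in CPM (vertical axis, linear from 0) of Alas2 and the 4 globin genes in each library of the 4 groups (horizontal axis) of the anti-GBM experiment (top) and the Adriamycin experiment (bottom); points are libraries and bars the mean and SD. In the Adriamycin experiment, Hbb-bs averaged 233 CPM in Adriamycin vehicle mice and 77.5 to 116 CPM in the other 3 groups, and in the anti-GBM experiment library NTS8 is the highest anti-GBM vehicle point for all 5 genes.

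FGF23 against vehicle in Adriamycin mice gave log2 differences (± SE) of -1.33 ± 0.26 for Hbb-bs and -1.45 ± 0.28 for Hbb-bt, both with an adjusted p of 0.133 in edgeR, and of -1.29 ± 0.27 for Alas2 (adjusted p = 0.177). The α-globins gave -1.18 ± 0.29 for Hba-a1 (adjusted p = 0.313) and -1.16 ± 0.31 for Hba-a2 (adjusted p = 0.476). The ranges of the groups did not overlap for any of the 5 genes, against 1.77% of all genes that were lower without overlap. By edgeR, 0 of the 9 genes with enough counts for a test passed (0.0375% of all genes passed). At an unadjusted p below 0.05, 5 were lower (2.92% of all genes). DESeq2 called 3, namely Alas2 (adjusted p = 0.00250), Hbb-bs (adjusted p = 0.00286) and Hbb-bt (adjusted p = 0.000420), against 0.208% of all genes. The 5 genes do not count as 5 observations. Across the 16 libraries their pairwise Pearson correlations of log2 CPM were 0.940 to 0.991, and 0.866 to 0.988 after group means were removed (the genes share libraries and depth).

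Hba-a1 was at 57.6, 43.0, 75.6 and 65.7 CPM in Adriamycin vehicle mice and at 15.24, 32.04, 34.1 and 25.3 CPM with FGF23. Hba-a2 was at 21.2, 15.3, 23.8 and 22.5 CPM against 5.13, 12.2, 11.3 and 8.35 CPM. Hbb-bt was at 14.03, 9.54, 17.4 and 17.1 CPM against 3.01, 5.80, 7.37 and 4.88 CPM. In each case the highest FGF23 library lay under the lowest vehicle library. In the GRCm38 reference the copies of each globin are near identical. Hba-a1 and Hba-a2 differ there at 1 of 429 coding bases, and Hbb-bs and Hbb-bt at 1 of 444. BALB/c mice can carry other copies than the reference, and their own sequences were not compared. How reads that fit both copies were treated is not given in the sources used here, so the split between copies is uncertain. With the copies summed, no call changed.

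Adriamycin against healthy mice, both on vehicle, gave positive differences for the same 5 genes: 1.00 ± 0.25 for Hbb-bs (adjusted p = 0.137), 0.99 ± 0.27 for Hbb-bt (adjusted p = 0.193), 0.87 ± 0.26 for Alas2 (adjusted p = 0.272), 0.83 ± 0.28 for Hba-a1 (adjusted p = 0.355) and 0.79 ± 0.30 for Hba-a2 (adjusted p = 0.451), all by edgeR. It called 0 of 9 genes (0.331% of all genes). At an unadjusted p below 0.05, 5 were higher (4.15% of all genes), and DESeq2 called 2, Hbb-bs (adjusted p = 0.0380) and Hbb-bt (adjusted p = 0.0385), against 1.03% of all genes. Of the red cell genes 4 did not overlap between the groups, as did Slc40a1 (2.84% of all genes were higher without overlap). Hba-a1 overlapped, by its highest healthy and its lowest diseased library. This comparison and FGF23 against vehicle in Adriamycin mice share the Adriamycin vehicle group, so a high value there enters both.

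With FGF23 in both groups, Adriamycin against healthy mice gave 0.07 to 0.35 for the 5 genes (edgeR adjusted p from 0.705 to 0.953). None of the 9 genes passed by edgeR (0.699% of all genes), at an unadjusted p below 0.05 (2030 of 16020 genes) or by DESeq2 (263 of 15622). In healthy BALB/c mice, FGF23 against vehicle gave -0.72 to -0.54, and edgeR called 0 of 9 genes (0% of all genes; adjusted p of the 5 from 0.689 to 0.780). At an unadjusted p below 0.05, 4 were lower (3.04% of all genes), and DESeq2 called 0. The difference of the FGF23 effect between Adriamycin and healthy mice, tested as an interaction, was -0.92 ± 0.40 for Hbb-bt and -0.75 ± 0.36 for Hbb-bs. Of the 9 genes it called 0 by edgeR (0% of all genes), 1 at an unadjusted p below 0.05 (Hbb-bt, against 5.11% of all genes) and 0 by DESeq2. An effect of FGF23 that differs between diseased and healthy mice was therefore not shown.

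In the anti-GBM experiment the red cell genes were spread more widely. Hbb-bs was at 136, 104, 118 and 249 CPM in healthy vehicle mice, at 179, 143, 114 and 385 CPM in anti-GBM vehicle mice (libraries NTS5 to NTS8 of the deposited table), at 61.0, 108 and 131 CPM in healthy FGF23 mice and at 93.6, 59.8 and 54.7 CPM in anti-GBM FGF23 mice. Each vehicle group held 1 high library, NTS4 and NTS8, which was the highest of its group for all 5 genes. The anti-GBM FGF23 libraries lay under every anti-GBM vehicle library.

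Alas2 was at 16.1, 12.4, 12.7 and 34.2 CPM in anti-GBM vehicle mice and at 11.8, 5.35 and 5.99 CPM in anti-GBM FGF23 mice, a difference of -1.28 ± 0.45 (edgeR adjusted p = 0.330). Hba-a1 was at 52.2, 41.9, 36.2 and 125 CPM against 29.6, 18.05 and 17.9 CPM (-1.54 ± 0.44, edgeR adjusted p = 0.253), and Hba-a2 at 18.8, 14.3, 11.8 and 58.7 CPM against 10.03, 6.25 and 7.42 CPM (-1.70 ± 0.53, edgeR adjusted p = 0.295). Hbb-bt was at 29.5, 22.05, 20.2 and 64.4 CPM against 16.1, 8.50 and 9.65 CPM (-1.57 ± 0.44, edgeR adjusted p = 0.242), and the Hbb-bs difference was -1.56 ± 0.42 (edgeR adjusted p = 0.222). No range overlapped for these 5 genes (4.1% of all genes were lower without overlap). The margin was narrow for Alas2, with 11.8 CPM in the highest FGF23 library and 12.4 CPM in the lowest vehicle library.

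edgeR called 0 of 10 genes for FGF23 against vehicle in anti-GBM mice (0.24% of all genes). At an unadjusted p below 0.05, 5 were lower (6.17% of all genes) and Epo was higher, and DESeq2 called 0 (0.939% of all genes). Without library NTS8 the differences shrank to -0.82 for Alas2, -0.98 for Hba-a1, -0.91 for Hba-a2, -1.06 for Hbb-bs and -1.06 for Hbb-bt. In healthy C57BL/6 mice they were -0.69 to -0.52, and edgeR called 0 of 10 (0% of all genes), as did DESeq2. At an unadjusted p below 0.05, 1 was lower (Tfrc, against 2.55% of all genes). The interaction called 0 of 10 by edgeR (0.0315% of all genes) and 0 by DESeq2, and 1 passed at an unadjusted p below 0.05 (Slc40a1, 0.47 ± 0.22, against 8.3% of all genes). Pairwise correlations of the 5 red cell genes across the 14 libraries were 0.960 to 0.994, and 0.933 to 0.991 after group means were removed.

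Anti-GBM disease on vehicle gave 0.43 to 0.79 for the 5 red cell genes (edgeR adjusted p from 0.129 to 0.390), and on FGF23 it gave -0.53 to -0.10 (adjusted p from 0.407 to 0.892). The vehicle value rested on the high libraries: without NTS8 the Hbb-bs difference was -0.02, and without NTS4 it was 0.82. Hbb-bt alone passed in one such fit, without NTS4 (1.23, edgeR adjusted p = 0.0237).

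**Figure D2:**
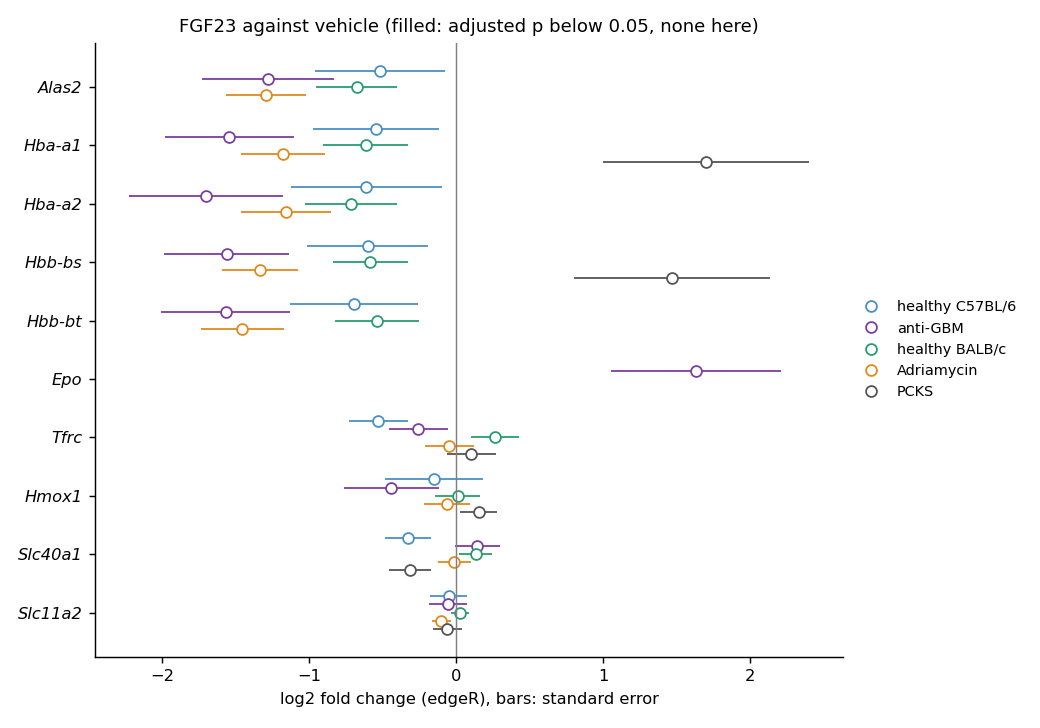
Log2 difference of FGF23 against vehicle (horizontal axis) with its SE for the genes tested in healthy and diseased mice of each injected experiment and in PCKS. Epo is drawn for anti-GBM mice only, as healthy libraries had few counts. The 5 red cell genes lie at -1.70 to -1.28 in anti-GBM mice, at -1.45 to -1.16 in Adriamycin mice and at -0.72 to -0.52 in healthy mice, while Hba-a1 and Hbb-bs lie above 0 in PCKS.

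Globins made up 171 ± 45.6 of each 1000000 counts, unscaled, (SD, n = 4) in healthy vehicle, 328 ± 72.4 in Adriamycin vehicle, 113 ± 36.4 in healthy FGF23 and 132 ± 38.7 in Adriamycin FGF23 mice. In a list of red cell and erythroblast markers, the erythroid transcription factor gene Gata1 had at most 3 counts in any library, Hemgn at most 4 and Rhag at most 2. Other genes of the list were present in every Adriamycin experiment library, with 16 to 33 counts for Klf1, 7 to 38 for Epb42, a red cell membrane protein gene, 49 to 88 for Tal1, a blood and vessel transcription factor gene, and 112 to 282 for Sptb, the β-spectrin gene (named after their values were seen). The embryonic globins Hbb-y, Hbb-bh0, Hbb-bh1, Hbb-bh2 and Hba-x, which adult precursors do not make, had 0 counts in all libraries. Slc4a1, which encodes the anion exchanger of red cells and of renal intercalated cells, was at 50.4 to 97.1 CPM in the Adriamycin experiment. The 18 matched genes of that list exclude the 10 genes and include Slc4a1, which had the largest part in their sum. They summed to 91.8 to 118 CPM in healthy vehicle and 76.4 to 121 CPM in Adriamycin vehicle mice. With FGF23 the sums were 65.9 to 113 CPM in healthy and 78.0 to 87.4 CPM in Adriamycin mice. The vehicle ranges overlap, but this sum does not follow red cells alone.

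The slices held few globin transcripts. Hbb-bs was at 19.2, 2.63, 15.5 and 2.94 CPM in vehicle slices and at 58.2, 12.6, 26.6 and 12.9 CPM in FGF23 slices, and Hba-a1 was at 7.83, 1.17, 4.93 and 1.89 CPM against 30.04, 4.78, 12.4 and 3.81 CPM. Mean levels were higher with FGF23, the groups overlapped, and the slice numbered 1 was the highest in both groups. The differences were 1.70 ± 0.70 for Hba-a1 and 1.47 ± 0.67 for Hbb-bs, both with an edgeR adjusted p of 0.849. Alas2 (0 to 22 counts), Hbb-bt and Epo (1 to 5 counts) were too low for a test, and Hba-a2 was at 0 counts in all 8 slices. Hba-a1 had 20 to 331 counts in the same slices. Strains can carry different globin haplotypes, and how reads that fit both copies were treated is not given. The cause of the 0 counts of Hba-a2 was not tested. Of the 6 genes tested, edgeR called 0 (0% of all genes), 1 was higher at an unadjusted p below 0.05 (Hba-a1, against 2.76% of all genes) and DESeq2 called 0. Slice 1 with FGF23 also had the highest share of mitochondrially encoded counts, 3.98% where vehicle slices had 1.72% to 2.22%, and its part in the result was not tested. Without both slices numbered 1, chosen after the values were seen, the differences were 1.45 for Hba-a1 and 1.36 for Hbb-bs, with 0 genes called.

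Hmox1, the enzyme that splits heme and a classic stress gene, was at 1050.2, 739, 1139.6 and 1009 CPM in vehicle slices and at 1036, 1075, 1166 and 1102 CPM in FGF23 slices. The groups overlapped, and the difference was 0.15 ± 0.13 (edgeR adjusted p = 0.860). These levels lay far above the 10.57 to 115 CPM of the injected experiments. Slices, strain, age and disease differ from both of those experiments, and sex from the Adriamycin experiment, and these cannot be told apart. Slc40a1 was at 56.2, 84.3, 61.2 and 63.4 CPM against 45.9, 61.5, 46.7 and 59.5 CPM (-0.31 ± 0.14), Tfrc at 132, 126, 118 and 136 CPM against 97.4, 161, 113 and 178 CPM (0.10 ± 0.17), and Slc11a2 at 98.0, 82.3, 93.2 and 80.2 CPM against 76.2, 88.7, 78.2 and 95.9 CPM (-0.06 ± 0.10). None of these 3 was called, and each overlapped between the groups.

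**Figure D3:**
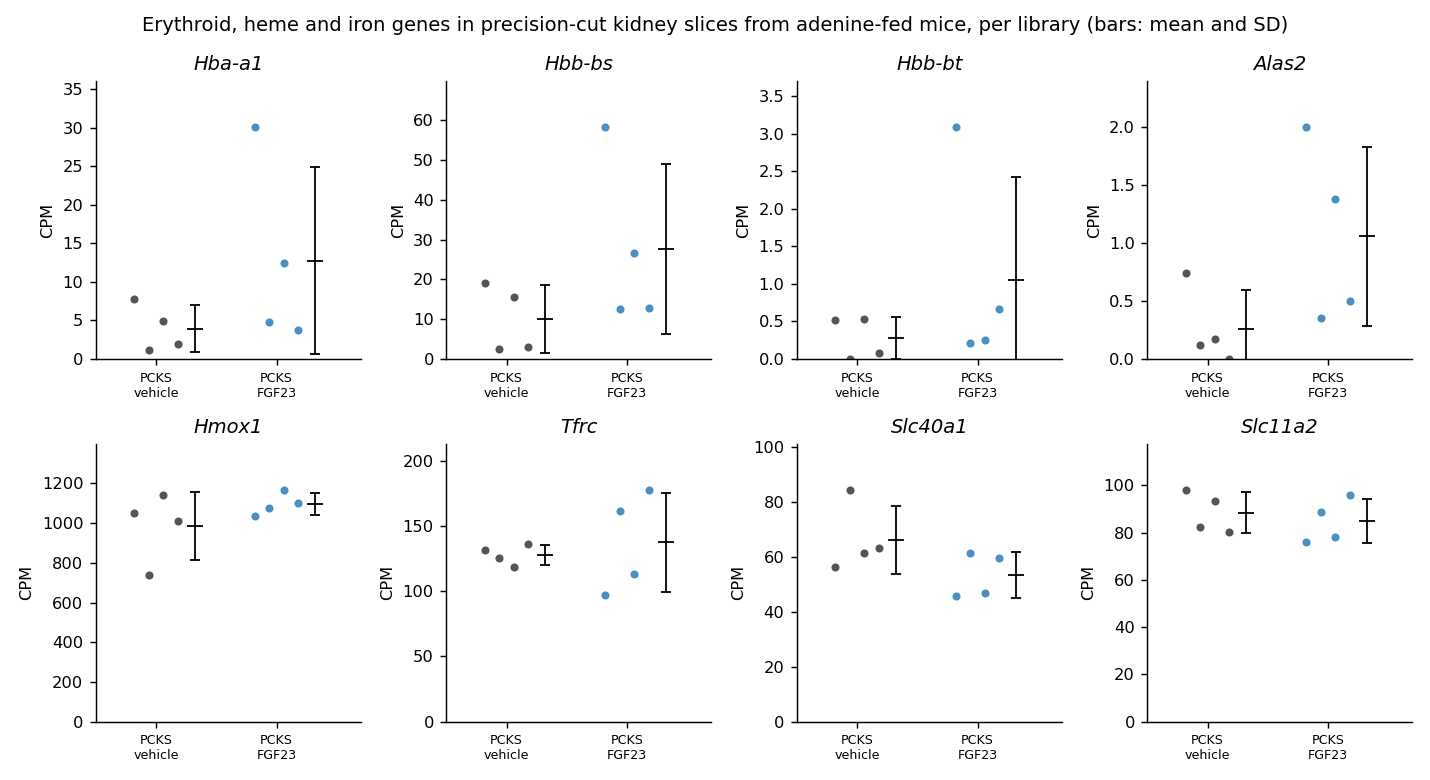
Levels in CPM (vertical axis, linear from 0) of 8 of the 10 genes in 4 vehicle and 4 FGF23 slice libraries from adenine-fed mice; points are libraries, bars the mean and SD, cut at 0. Hba-a1 reaches 30.04 CPM and Hbb-bs 58.2 CPM in FGF23 slice 1, and Hmox1 lies at 739 to 1166 CPM in all 8.

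Epo was the member of the set with the largest difference by disease, from very few reads. Its counts were 1, 1, 1 and 3 in healthy vehicle mice, 2, 1, 16 and 12 in anti-GBM vehicle mice, 0, 0 and 1 in healthy FGF23 mice and 23, 32 and 32 in anti-GBM FGF23 mice. In CPM the anti-GBM vehicle libraries stood at 0.102, 0.0643, 0.821 and 0.863 and the anti-GBM FGF23 libraries at 1.104, 1.60 and 1.58. The vehicle group thus held a pair of libraries at the healthy level and a pair far above it (NTS7 and NTS8), and all 3 FGF23 libraries lay above all vehicle libraries.

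Epo passed the filter on low counts only through anti-GBM libraries, as healthy libraries had at most 3 counts. Its calls by disease thus rest on the libraries that let it be tested and are no separate support. Epo was called higher in anti-GBM disease on vehicle (edgeR adjusted p = 0.0317), with a ratio of group totals of 5.57 (95% exact counting interval 2.29 to 16.3, from 31 against 6 counts). On FGF23 it rose as well (adjusted p = 0.000952), with a ratio of 80.5 (14.07 to 3216, from 87 against 1 counts). The intervals cover counting error only. The vehicle call was lost without NTS1, NTS2, NTS3, NTS7 or NTS8 (edgeR adjusted p from 0.0670 to 0.113). Epo had too few counts for a test when only those groups were fitted, and without NTS7 and NTS8 together the log2 difference was 0.07 (adjusted p = 0.964). The FGF23 call was kept without each of the libraries. FGF23 against vehicle in anti-GBM mice gave a ratio of 3.15 (2.07 to 4.91) and a log2 difference of 1.63 ± 0.58 that was not called (edgeR adjusted p = 0.330). Without NTS7 and NTS8 it was 3.97 (adjusted p = 0.0449). These libraries were singled out for their own high values, so that fit is no separate support. The comparison on vehicle shares the anti-GBM vehicle libraries with the comparison of FGF23 and vehicle. In the Adriamycin experiment Epo had 0 to 6 counts per library and was not tested.

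Marker levels of other cell types also differed in anti-GBM kidneys, and bulk tissue does not tell cell number from RNA per cell. Markers of the interstitial fibroblasts from which Epo-producing cells come (5 genes) summed to 247 to 285 CPM in healthy vehicle, 458 to 649 CPM in anti-GBM vehicle, 253 to 289 CPM in healthy FGF23 and 718 to 939 CPM in anti-GBM FGF23 libraries. Of the 5, 3 rose on vehicle (19.4% of all genes were called higher), with Col1a1, a collagen chain, at 2.44 and Pdgfrb, a pericyte receptor, at 0.52. All 5 rose on FGF23 (14.5% of all genes). Their part in the Epo values was not tested.

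**Figure D4:**
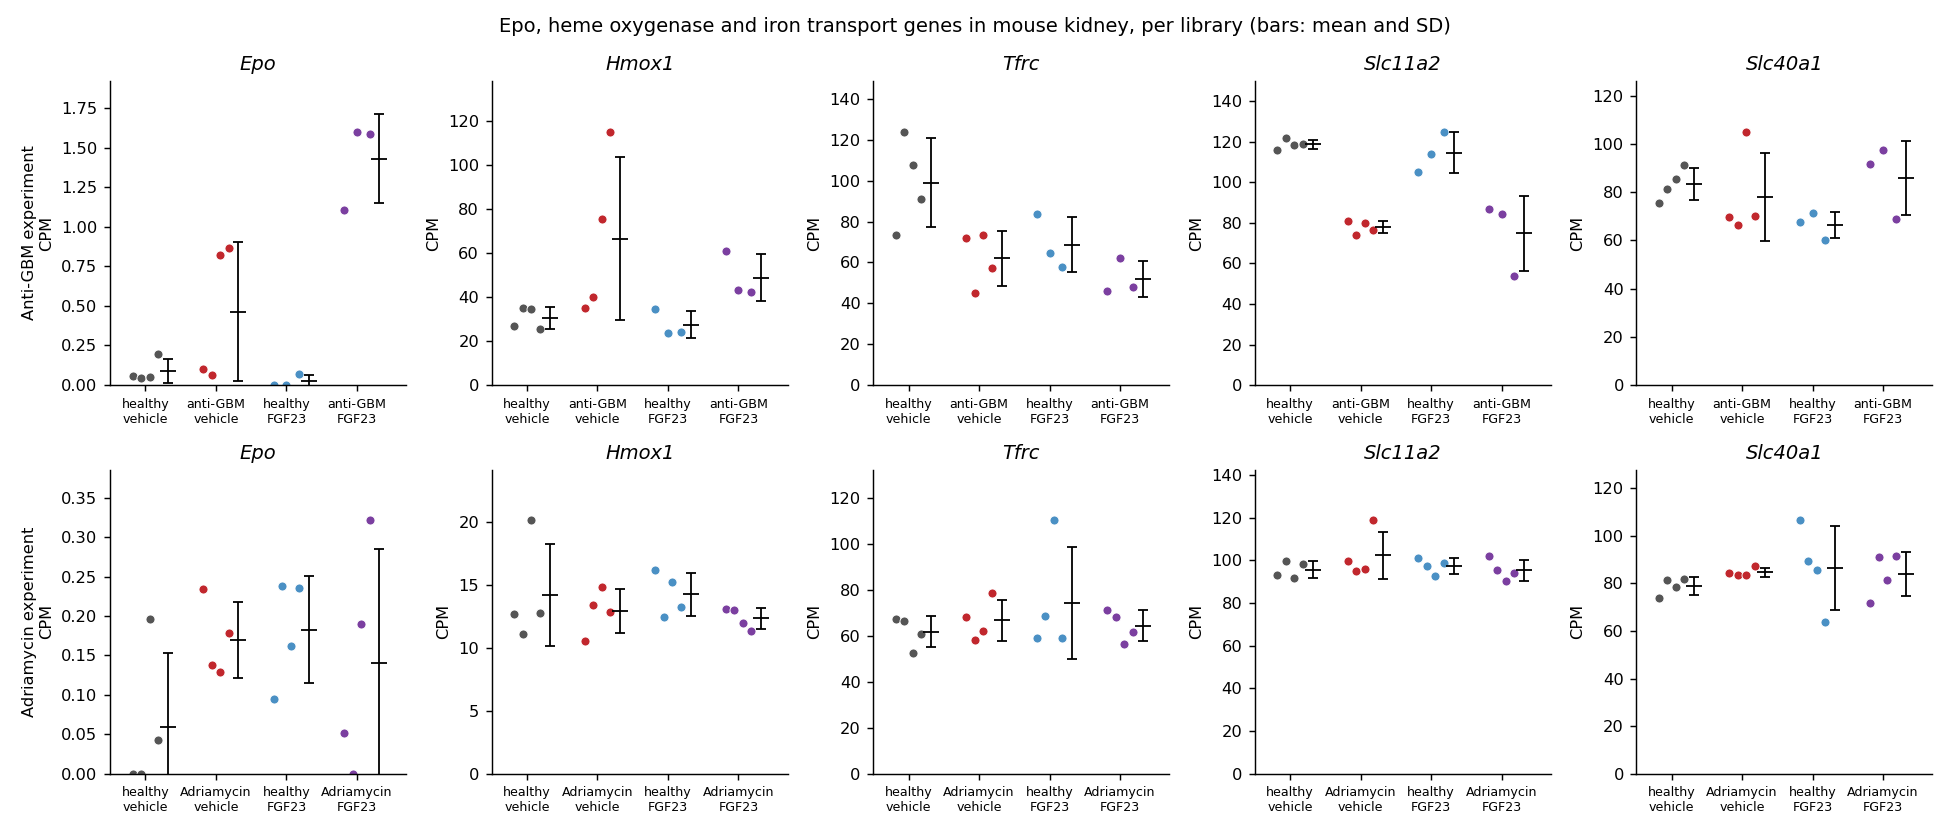
Levels in CPM (vertical axes, linear from 0) of Epo, Hmox1, Tfrc, Slc11a2 and Slc40a1 in each library of the 4 groups of the anti-GBM experiment (top) and the Adriamycin experiment (bottom); points are libraries and bars the mean and SD, cut at 0. In anti-GBM mice Epo lies at 1.104 to 1.60 CPM with FGF23, and Slc11a2 sits at 74.2 to 80.8 CPM on vehicle, below the 116 to 122 CPM of healthy vehicle mice.

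Hmox1 was at 26.9, 34.995, 34.3 and 25.6 CPM in healthy vehicle and at 35.1, 39.9, 75.4 and 115 CPM in anti-GBM vehicle libraries. The ranges did not overlap, but the lower pair of diseased libraries lay just above the healthy ones, and NTS7 and NTS8 were the high ones, as for Epo. Hmox1 rose by 1.12 ± 0.30 (edgeR adjusted p = 0.0101). Without NTS7 and NTS8 the difference was 0.31 (adjusted p = 0.240). On FGF23 it was at 34.4, 23.8 and 23.9 CPM in healthy and 60.9, 43.1 and 42.3 CPM in anti-GBM mice, a difference of 0.83 ± 0.35 that was not called (edgeR adjusted p = 0.0951), though no ranges overlapped. That value passed in some other fits, for example without NTS8 (adjusted p = 0.0264). Macrophage markers (10 genes), from cells that express Hmox1 strongly, summed to 139 to 146 CPM in healthy vehicle and 311 to 467 CPM in anti-GBM vehicle libraries. Of these markers 8 of the 9 tested rose on vehicle (19.4% of all genes were called higher). Their part in the Hmox1 values was not tested. In Adriamycin disease Hmox1 was not called, at 14.17 ± 4.04 CPM in healthy vehicle and 12.9 ± 1.77 CPM in diseased vehicle mice (SD, n = 4).

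Slc11a2 gave the tightest separation of the set. It was at 116, 122, 119 and 119 CPM in healthy vehicle and at 80.8, 74.2, 79.9 and 76.7 CPM in anti-GBM vehicle mice. With FGF23 it was at 105, 114 and 125 CPM in healthy and at 86.7, 84.3 and 53.7 CPM in anti-GBM mice. All diseased libraries lay under all healthy ones in both treatments. Slc11a2 fell by 0.61 on the log2 scale on vehicle (SE 0.12, edgeR adjusted p = 0.00127) and by 0.61 on FGF23 (SE 0.14, adjusted p = 0.00463), and both calls were kept in every fit tried. In the Adriamycin experiment it averaged 95.7 ± 3.84 CPM in healthy and 102.3 ± 11.1 CPM in diseased vehicle mice (SD, n = 4), not called.

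Tfrc was at 73.5, 124, 108 and 91.2 CPM in healthy vehicle and at 71.9, 45.2, 73.5 and 57.04 CPM in anti-GBM vehicle libraries. The groups met at about 73.5 CPM. Tfrc fell by 0.68 (SE 0.18, edgeR adjusted p = 0.0101), a call that was lost without NTS2, the highest healthy library (adjusted p = 0.0502). On FGF23 it was at 83.6, 64.5 and 57.7 CPM in healthy and 45.8, 62.0 and 47.8 CPM in anti-GBM mice, with a difference of -0.41 ± 0.21 that was not called (adjusted p = 0.177). Slc40a1 was at 75.4, 81.2, 85.4 and 91.3 CPM in healthy vehicle and 69.7, 66.4, 105 and 70.0 CPM in anti-GBM vehicle mice (-0.10 ± 0.14, adjusted p = 0.616). On FGF23 the values were 67.7, 71.1 and 60.2 CPM against 91.5, 97.6 and 68.7 CPM (0.37 ± 0.17, edgeR adjusted p = 0.112).

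Among the 10 genes, anti-GBM disease on vehicle thus gave 4 calls, Epo and Hmox1 higher and Tfrc and Slc11a2 lower, where edgeR called 39.8% of all genes (19.4% higher and 20.4% lower). On FGF23 it gave 2 calls, Epo higher and Slc11a2 lower, against 27.2% of all genes (14.5% higher and 12.7% lower). With 4 of 10 and 2 of 10, the share called was near that of all genes. Both counts include Epo, which passed the count filter only through anti-GBM libraries. In the Adriamycin experiment, Tfrc, Hmox1, Slc40a1 and Slc11a2 gave no call in any of the 5 contrasts, and their vehicle differences by disease were -0.13 to 0.11.

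**Figure D5:**
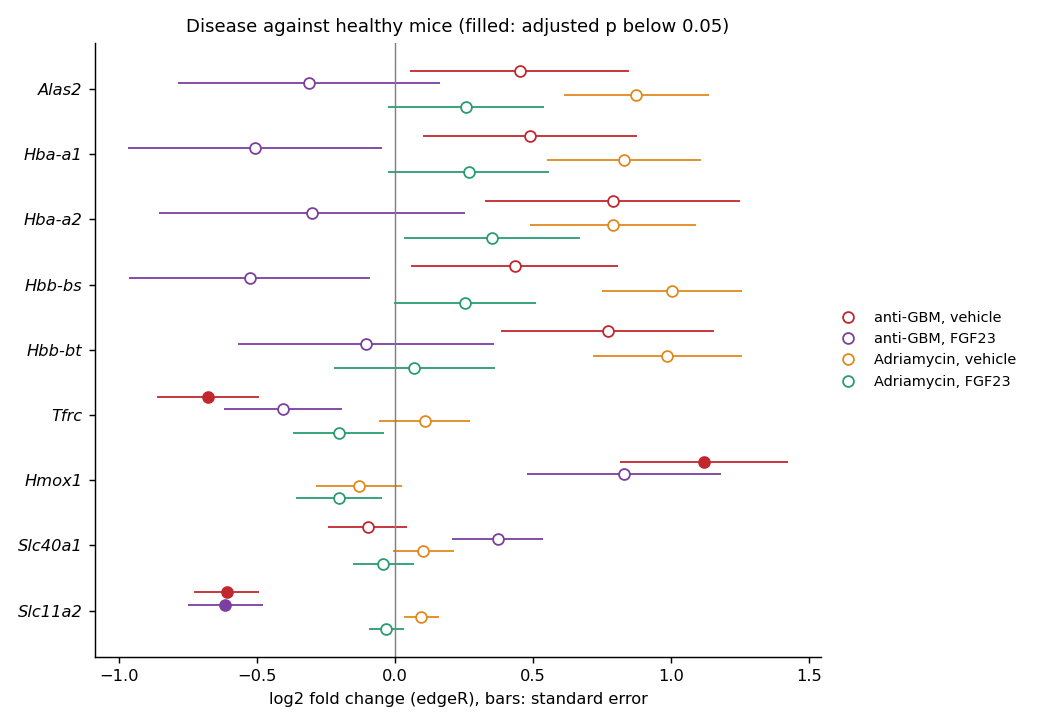
Log2 difference of diseased against healthy mice (horizontal axis) with its SE for the genes tested, on vehicle and on FGF23, in the anti-GBM and Adriamycin experiments, with filled points where the adjusted p is below 0.05; Epo is left out because its fitted difference rests on few counts. Slc11a2 lies at -0.61 in anti-GBM disease under both treatments, and the red cell genes lie at 0.79 to 1.00 in Adriamycin disease on vehicle.

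Other genes of the same pathways were counted from lists that were fixed by name, to be read against the 39.8% of all genes called in anti-GBM disease on vehicle and the 27.2% called on FGF23. In anti-GBM disease on vehicle, 13 heme synthesis genes gave 1 higher and 4 lower (median log2 difference -0.12, where all genes had -0.01), a share near that of all genes. Fech, which inserts iron into heme, fell by 0.44, and Cpox, an earlier enzyme of the pathway, fell by 0.68. Heme breakdown, transport and scavenging gave 2 higher and 2 lower of 15 tested: the heme exporter Flvcr1 rose by 1.06, and the proximal tubule uptake receptors Lrp2 and Cubn fell by 0.67 and by 0.54. Iron uptake and transport gave 5 higher and 1 lower of 16 tested (median 0.17), with Lcn2, which binds siderophores that carry iron, at 6.75, ceruloplasmin (Cp), which oxidizes exported iron, at 2.06, and Slc25a37, the mitochondrial iron importer, at -0.35.

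Iron storage and sensing gave 3 higher and 3 lower of 13 tested. Ncoa4, which delivers ferritin for breakdown, rose by 0.40, while Ireb2, an iron regulatory protein that binds IREs, fell by 0.61 and Fbxl5, which removes it, fell by 0.41. Oxygen sensing and HIF targets gave 4 higher and 4 lower of 18, with Ndrg1 at 1.07 and Adm at 0.88 among those that rose and Egln1, an oxygen sensor, at -0.28 among those that fell. Targets of NRF2, a factor that also drives Hmox1, gave 3 higher and 3 lower of 10: Srxn1 rose by 0.62 and Gclc fell by 1.04. Calls went in both directions in each of these lists. On FGF23, anti-GBM disease gave 1 higher and 5 lower in heme synthesis (Alas1, the housekeeping form of the enzyme that Alas2 encodes, rose by 0.98), 2 and 2 in heme breakdown, 5 and 1 in iron uptake, 1 and 1 in iron storage and sensing, 2 and 4 in oxygen sensing (Egln3, another oxygen sensor, fell by 0.96) and 2 and 3 among NRF2 targets.

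Cell marker lists were counted against the same shares (on vehicle 19.4% of all genes higher and 20.4% lower). Of 8 neutrophil markers, 5 had enough counts for a test, and on vehicle all 5 rose. The 8 summed to 1.23 to 2.12 CPM in healthy vehicle and 9.06 to 18.5 CPM in anti-GBM vehicle libraries. Genes this low can pass the count filter through the diseased libraries alone, so the share that rose is no separate support. Also on vehicle, 3 of 7 proximal tubule markers fell. Of 7 red cell markers tested 2 rose, Trim10 by 2.33 (0 to 17 counts per library) and Epb42 by 1.32. Of the same 7, 1 fell, Klf1, a red cell transcription factor, by 0.89. The 3 of 7 red cell markers called are a share near that of all genes. On FGF23, where 14.5% of all genes were called higher and 12.7% lower, 8 of 9 macrophage and 3 of 5 neutrophil markers rose. The limit given for neutrophil markers on vehicle holds here too. In that comparison, 4 of 7 proximal tubule and 1 of 2 platelet markers fell, and of the red cell markers 1 rose and 1 fell. None of 7 kidney identity markers was called on vehicle by edgeR, and 1 fell on FGF23 (Slc34a1). Their part in the differences above was not tested. On FGF23, Adriamycin disease gave 2 calls: the vessel-dilating peptide gene Adm rose by 0.63 and the NRF2 target Osgin1 fell by 0.70. FGF23 against vehicle, either interaction, Adriamycin disease on vehicle and the slices gave no call in any of the lists by edgeR.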

How the data were processed

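RNA of a kidney fragment per mouse and of kidney slices was sequenced with an Illumina stranded mRNA ligation kit. Per the labels and the study's methods, the authors used bcl2fastq 2.20.0, FastQC 0.11.8, STAR 2.7.9a on GRCm38 and featureCounts 1.5.1, and deposited raw counts per gene for all libraries. The strand setting and the handling of reads that map to several places are not given in the sources used here. No other column was left out.

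Kidney columns were assigned to groups by the headers of the study's tables and slice columns by sample name. In the anti-GBM experiment 1 column numbered 14 carries the name NTS4 a second time. It is called NTS14 here, as in the study's table. The group sizes in a figure legend (3 for anti-GBM, 4 for healthy groups) differ from the labels, which were used. Each experiment was fitted alone with edgeR 4.0.16 (R 4.3.3, limma 3.58.1): TMM scaling, filterByExpr, a quasi-likelihood test over all 4 or 2 groups without a block, and Benjamini-Hochberg adjustment over 15859, 16020 and 15090 genes, called at 0.05. CPM are counts on TMM-scaled totals (TMM 0.891 to 1.14). Fits were tested on simulated data. DESeq2 1.42.0, RLE scaling, no filter, globins left out of the totals, a robust fit, only the groups compared, summed globin copies and leaving out each library were alternatives. No 2 libraries of a group agreed within sampling noise (lowest chi-square per degree of freedom 2.12). The slice numbers were not used as pairs in the main test. Correlations of same-numbered slices' deviations were 0.107, 0.105, -0.105 and 0.112, which does not settle whether the numbers pair.

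The 10 genes, the lists of pathway and cell marker genes (158 of 159 matched) and the tests were chosen with earlier results of these data known. The named genes were all members, plus per list at most 3 called genes in each direction, lowest adjusted p first, and for Alas2 and Hmox1 the 5 genes most like them in each injected experiment. Some genes that this rule names are not reported here. Promoters were from RefSeq, transcripts and gene positions from GENCODE M21. Protein sequences were not used here.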

Additional observations from a re-analysis of the deposited data

Results flagged for a closer look

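Of 76 groups of 4 libraries searched (each gene in each group, on log2(CPM + 0.1)), 1 was marked for a sample far from the others. Slc40a1 in the anti-GBM vehicle group was at 105 CPM in library NTS7, where the other 3 libraries were at 66.4 to 70.0 CPM. The gap was 0.886 of the group's range on that log scale, over Dixon's 95% limit for 4 samples. On CPM without the log, chosen after seeing the data, 5 groups passed the limit: this one (0.907), Hba-a2 in the healthy vehicle group (NTS4, 0.871) and in the anti-GBM vehicle group (NTS8, 0.851), Alas2 in the anti-GBM vehicle group (NTS8, 0.831) and Hbb-bt in the FGF23 slices (slice 1, 0.843). Chance marks about 1 in 20 groups.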

How the results depend on the processing

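No call changed direction. Of 2131 single-gene tests under the alternatives, 2103 kept their side of the threshold, 20 newly passed it and 8 fell short of it, and 35 uncalled differences changed sign. Without a filter on low counts, FGF23 against vehicle called 1 member in anti-GBM mice (Hbb-bs, edgeR adjusted p = 0.0468), against 60 of 30487 genes. It called 3 in Adriamycin mice (21 of 31544 genes), and Adriamycin against healthy on vehicle called 1 (98 of 31544). DESeq2 called 3 and 2 in those last comparisons (0.208% and 1.03% of all genes). Without NTS7 and NTS8, chosen after seeing the data, anti-GBM against healthy called 2 genes on vehicle and 4 on FGF23 (also Hmox1 and Slc40a1), and FGF23 against vehicle in anti-GBM mice called 1 (Epo). Leaving out each library gave 2 to 5 calls for anti-GBM disease on vehicle, 2 to 3 on FGF23 and 0 to 0 in the other 9 comparisons. The cause of these changes was not tested.

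For the slices, a replicate block on the slice number, for which not every same-numbered pair met the limit set for a pairing, left 0 genes called, with Hba-a1 at 1.61 and Hbb-bs at 1.62 (adjusted p = 0.263 for both). The call count over all genes was 0 with and without it. Not every slice correlated best with its own number. By number, Hbb-bs and Hba-a1 were higher and Slc40a1 lower with FGF23 in 4 of 4 pairs, and the other genes tested went in both directions. The share of all genes that differ in the same direction in every pair was not counted. Whether the numbers pair is not settled, so these counts are no separate support for a difference. Epo's low counts and the globin copies limit what these depths can show.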

Other observations

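Genes whose log2 CPM varied most like Alas2 and Hmox1 were listed as a description, over all libraries of an experiment, which share depth, disease and treatment. Across the 14 libraries of the anti-GBM experiment, Alas2 was most like Tmem88 (Pearson r = 0.820), Acd (0.774), Trmt1 (0.772) and Cdk18 (0.740). Hmox1 was most like Utp4 (0.960), Ranbp1 (0.947), Mapre3 (0.946), Rras2 (0.943) and Fkbp1a (0.941). Across the 16 libraries of the Adriamycin experiment, Alas2 was most like Ube2l6 (0.888), Exoc7 (0.878), Prrg4 (0.877), Ispd (0.843) and Rpl31 (0.806), and Hmox1 was most like Ccdc149 (0.890), A330041J22Rik (0.797), Rcan1 (0.780), Szrd1 (0.752) and Mamstr (0.734). The lists of the experiments shared none of these genes for either gene. The globins, which are members of the set, were left out of the search.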
